A study of Rattus norvegicus with 22 samples.

Results

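Hippocampal small RNA was sequenced in male rats of the outbred Long Evans strain after repeated dosing with the insecticide chlorpyrifos (CPF) or with its vehicle. The libraries described here are the 6 CPF libraries whose codes begin with 3 and the 5 control libraries whose codes begin with 1, which makes 11 of the 22 libraries of the series (the others are 6 control libraries with codes that begin with 4 and 5 CPF libraries with codes that begin with 6). They were chosen by these codes, though with earlier results of these data known. The treated rats had received 21 daily injections of CPF under the skin at 10 mg/kg of body weight, the controls the same volume of peanut oil for the same 21 days, and all were 14 weeks old. The labels name the hippocampus, and the extraction protocol its CA1 region. Part of the study's rats went through fear conditioning just before tissue was taken, and the labels tie neither that training nor the first digit of the code to a library. The labels identify no animals, and the p-values therefore rest on the spread from library to library.

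MicroRNAs (miRNAs) are short RNAs cut from hairpin transcripts, and they repress messenger RNAs that pair with their seed, bases 2 to 8 from the 5′ end. Either arm of a hairpin can be kept, and the arms are written -5p and -3p. CPF is converted in the body to a compound that blocks acetylcholinesterase, the enzyme that ends cholinergic transmission. miR-132 and miR-212 come from neighbouring genes that neuronal activity switches on through the transcription factor CREB, and miR-132 is known to target the acetylcholinesterase transcript. The comparison of these libraries asks which hippocampal miRNAs differ after 21 days of CPF.

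The 4 mature miRNAs of the miR-132 and miR-212 genes are shown first because the result below rests on 1 of them. The sequences are those of RefSeq (assembly GRCr8), with the seed in capitals.
miR-212-5p: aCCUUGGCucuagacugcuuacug
miR-132-5p: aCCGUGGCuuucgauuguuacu
miR-132-3p: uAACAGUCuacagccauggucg
miR-212-3p: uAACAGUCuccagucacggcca
The -3p arms share the seed AACAGUC, while the -5p arms have the seeds CCUUGGC and CCGUGGC, which differ. Among the 288 miRNA names tested, 250 matched a RefSeq mature miRNA, and no other of these had the seed of miR-212-5p.

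The libraries were shallow. Values are reads per 1000000 assigned to miRNAs (RPM), and the steps between low values gave 53748 to 94980 reads per library, so that 1 read was worth 10.5 to 18.6 RPM. The floor was set at 3 reads, which is 31.6 to 55.8 RPM. Reads without molecular identifiers are not independent molecules, and this floor covers counting error only. Neuron-enriched miRNAs were present, with miR-9a-5p at 53506 ± 6490 RPM in control (SD, n = 5) and 52050 ± 8921 RPM in CPF libraries (SD, n = 6) and miR-124-3p at 427 to 949 RPM and 465 to 999.7 RPM. The vessel wall miRNA miR-143-3p, the highest name in each library, accounted for 26.8 ± 1.09% of the RPM of the controls and 26.1 ± 2.76% of those of the CPF libraries. Other vessel wall names were far lower, with miR-126a-3p at 1634 and 1596 RPM and miR-145-5p at 198 and 186 RPM in control and CPF libraries. The part of vessel wall in the tissue was not tested. The myeloid miR-223-3p was at 0 in all 11 libraries. Other microglial and inflammatory names were present, with miR-142-5p at 50.4 and 52.0 RPM and miR-146a-5p at 137 and 144 RPM in control and CPF libraries. The 0 of miR-223-3p thus does not show that myeloid cells were absent.

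2 libraries stood apart from the others. CPF replicate 1, the deepest with 94980 reads, held miR-153-3p at 14435 RPM, where the other 10 libraries lay between 282 and 626 RPM, and miR-181a-5p at 17488 RPM, where the others lay between 2056 and 4130.4 RPM. miR-153 is enriched in brain and miR-181a is abundant in brain and in lymphoid cells, and their sequences, shown because this library turns on them, have different seeds.
miR-153-3p: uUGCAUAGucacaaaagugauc
miR-181a-5p: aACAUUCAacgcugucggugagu
The name miR-181a, which the files list apart from miR-181a-5p, followed the latter in this library at 17688 RPM, and how reads were split between these names is uncertain. Of 125 miRNAs with a mean of at least 200 RPM, CPF replicate 1 was the highest library for 27 and the lowest for 25. Control replicate 3, the shallowest with 53748 reads, was the highest for 15 and the lowest for 25, and the other 9 libraries were the highest for 5 to 14 and the lowest for 5 to 14.

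**Figure D1:**
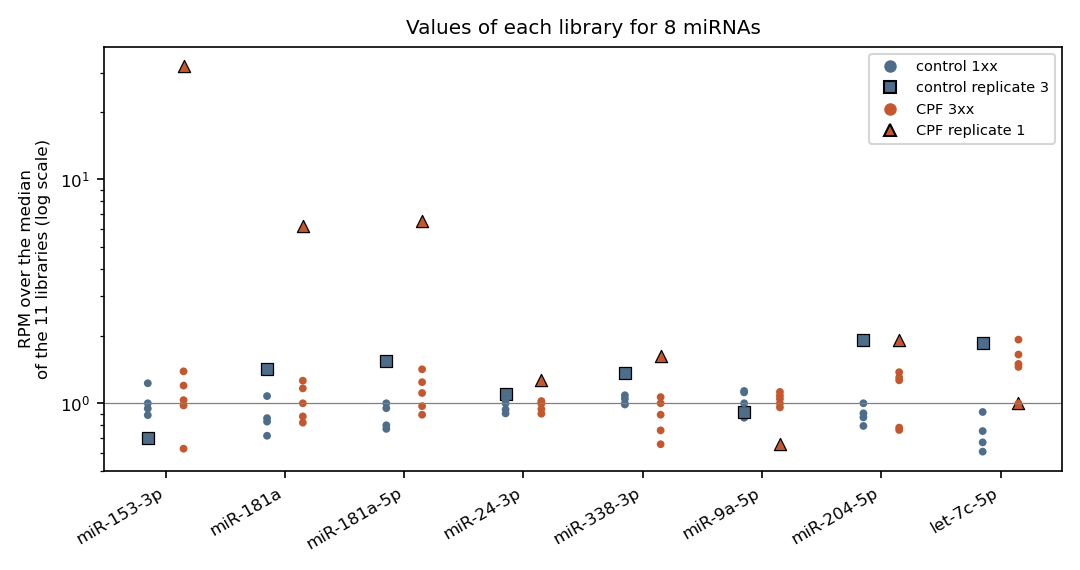
Level of 8 miRNAs in each of the 11 libraries, as RPM divided by the median of the 11 libraries, on a log scale. Points stand for libraries, the square for control replicate 3 and the triangle for CPF replicate 1, which lies far above the other libraries for miR-153-3p, miR-181a and miR-181a-5p and below them for miR-9a-5p (34986 RPM).

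A single miRNA, miR-212-5p, passed as higher in CPF libraries, and none passed as lower. Of 288 names with at least 10 RPM in at least 5 of the 11 libraries, 1 passed an adjusted p of 0.05, which is 0.347% of those tested (limma on log2(RPM + 1), two-sided, Benjamini-Hochberg adjustment). At an unadjusted p under 0.05 there were 14 higher names (4.86%) and 4 lower names (1.39%), together 18 (6.25%). Of the higher ones 10 reached 3 reads per library in at least a group, and the 4 lower ones averaged under 3 reads in both groups. Of all names tested, the median log2 fold change was 0.06, with 167 (58%) above 0. That share depended on the scaling: after median-ratio scaling 53.5% were above 0 with a median of 0.02, and in edgeR with RLE factors 49.6% of 141.

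miR-212-5p stood at 845, 868, 707, 725 and 756 RPM in control replicates 1 to 5. In the CPF libraries its lowest value was 1085, its median 1139 and its highest 1310.4 RPM. All 6 CPF libraries thus lay above the highest control, and it was the only one of the 288 names (0.347%) whose groups did not overlap with CPF higher, while 0 of 288 did so with CPF lower. The means were 780.1 ± 72.2 RPM (SD, n = 5) and 1163 ± 78.3 RPM (SD, n = 6), or 53.8 and 87.0 reads per library. The log2 fold change was 0.58 (SE 0.112, 95% CI 0.34 to 0.81, limma adjusted p = 0.0250). The call sat near the threshold and was lost in 15 of 29 alternative settings, while the log2 fold change kept its sign in all 29. Without control replicate 3, 4 or 5, or without CPF replicate 2, 3, 5 or 6, the limma adjusted p was 0.0604 to 0.113. DESeq2 on recovered reads gave an adjusted p of 0.179 and passed 0 of 396 names (6 at an unadjusted p under 0.05), and edgeR passed 1 of 141 (0.709%), again miR-212-5p. Without CPF replicate 1 its log2 fold change was 0.58 (limma adjusted p = 0.0299).

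miR-132-3p, the activity-induced partner that targets acetylcholinesterase, did not pass in these libraries. It stood at 676, 626, 967, 409 and 839 RPM in control replicates 1 to 5, and at 690.5 (lowest), 1096 (median) and 1827 RPM (highest) in the CPF libraries. The groups overlapped, with 4 of 6 CPF libraries above the highest control. The means were 703 ± 213 and 1184 ± 418 RPM, and the log2 fold change of 0.73 (SE 0.244, 95% CI 0.22 to 1.25) was larger than that of miR-212-5p but had a wider interval (limma adjusted p = 0.483). The opposite arms were near or under the floor: miR-132-5p averaged 18.5 RPM in control and 32.8 RPM in CPF libraries, and miR-212-3p 22.9 and 27.7 RPM. Neither arm passed, and with so few reads this does not show that they were unchanged.

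**Figure D2:**
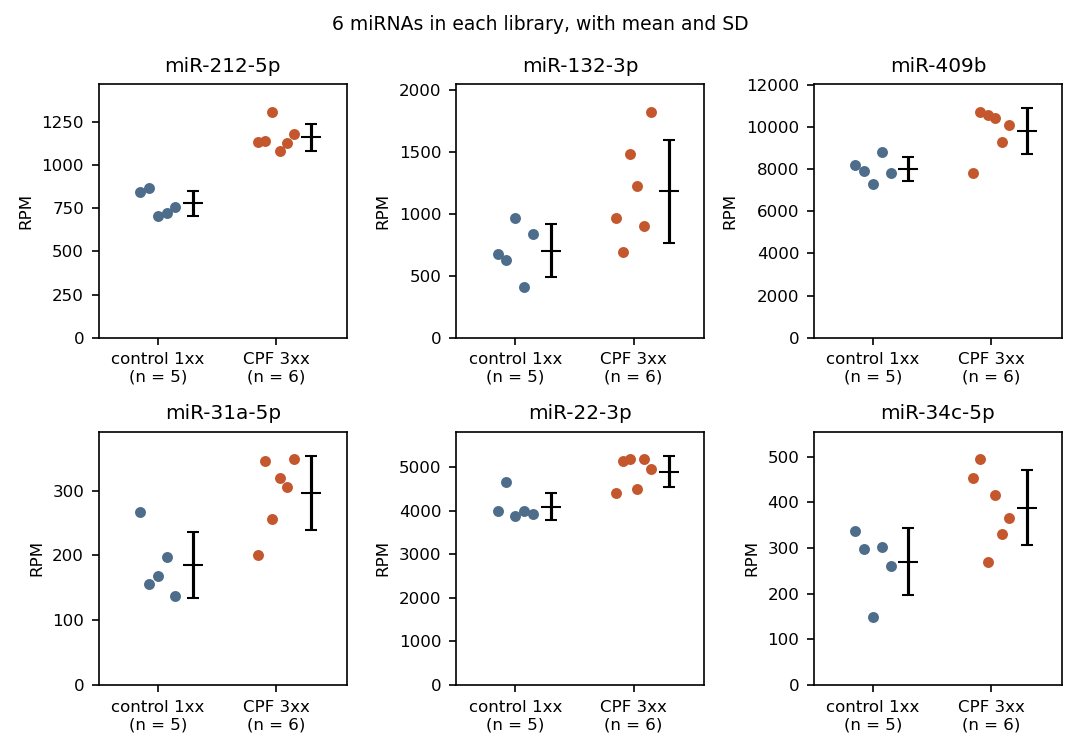
RPM of 6 miRNAs in each of the 5 control and 6 CPF libraries (points), with the mean and SD of each group (bars beside the points). The groups of miR-212-5p do not overlap, with the CPF libraries from 1085 RPM and the controls up to 868 RPM, while those of the other 5 miRNAs do.

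Besides miR-132-3p, the smallest p-values above the threshold were those of miR-409b, miR-31a-5p and miR-22-3p, which averaged higher in CPF libraries without passing. They are shown with let-7c-5p and miR-34c-5p, which had an unadjusted p under 0.05 and at least 10 reads per library in each group, because all 5 have different seeds. For miR-409b and miR-409a-3p, the capitals mark the run over which each is the reverse complement of the other. For the others, the seed is in capitals.
miR-409b: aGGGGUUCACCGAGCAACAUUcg
miR-409a-3p: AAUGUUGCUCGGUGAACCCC
miR-31a-5p: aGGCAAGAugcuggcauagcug
miR-22-3p: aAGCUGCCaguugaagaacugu
let-7c-5p: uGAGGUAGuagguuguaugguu
miR-34c-5p: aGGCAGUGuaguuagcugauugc
miR-409b and miR-409a-3p are complementary over 20 bases, as are miR-31a-5p and miR-31b over 19 and let-7c-5p and miR-3596a over 18. The use of strand in counting is not given. miR-409a-3p and miR-31b are not among the names analysed here, so from which strand the reads under miR-409b and miR-31a-5p came is uncertain. let-7c-5p and miR-3596a are both listed, and the split of reads between them is uncertain. Of the 250 tested names with a RefSeq sequence, 42 had a partner complementary over at least 15 bases. They include miR-434-3p, miR-338-5p, miR-338-3p, miR-29a-3p and miR-9a-5p, whose reads carry the same uncertainty.

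miR-409b, from the imprinted Dlk1-Dio3 region, averaged 8004 ± 561 RPM in control and 9816 ± 1107 RPM in CPF libraries, a log2 fold change of 0.29 (SE 0.0933, limma adjusted p = 0.483). It stood at 8209, 7909, 7275, 8805 and 7823 RPM in the controls, and at 7812 (lowest), 10249 (median) and 10733 RPM (highest) in CPF libraries. The low value was that of CPF replicate 1, and the other 5 lay above all controls. Without that library the log2 fold change was 0.35 and the limma adjusted p 0.0301, so that 2 names passed. miR-22-3p, a miRNA found in many cell types, stood at 3999, 4652, 3889, 3994 and 3932 RPM in the controls, and at 4411 (lowest), 5050.3 (median) and 5189 RPM (highest) in CPF libraries. Control replicate 2 lay apart from the other controls and overlapped the CPF libraries. Its log2 fold change was 0.26 (SE 0.0864, limma adjusted p = 0.483).

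miR-31a-5p stood at 268, 156, 167, 198 and 137 RPM in the controls, and at 200.04 (lowest), 313 (median) and 349 RPM (highest) in CPF libraries, of which 4 lay above the highest control. Its log2 fold change was 0.69 (SE 0.229, limma adjusted p = 0.483). miR-34c-5p, abundant in ciliated cells such as those of the ependyma and choroid plexus, averaged 270.0 ± 73.0 and 389 ± 82.8 RPM, with a log2 fold change of 0.55 (limma adjusted p = 0.762). Its controls ran from 149 to 338 RPM and its CPF libraries from 270.2 to 495 RPM, with 4 above the highest control, and without control replicate 3, the lowest, its log2 fold change was 0.35. let-7c-5p averaged 202 ± 108 and 299 ± 77.1 RPM, a log2 fold change of 0.65 (limma adjusted p = 0.762). Control replicate 3 held it at 391 RPM, where the other controls lay between 128 and 192 RPM, and without that library the log2 fold change was 0.92 (limma adjusted p = 0.236). The name let-7c, listed apart from let-7c-5p, averaged 312 ± 54.0 and 335 ± 108 RPM, a log2 fold change of 0.06 (limma adjusted p = 0.977). How reads were split between these names is uncertain. miR-329-5p, miR-764-3p and miR-375-3p completed the 10 names of smallest p in this direction with at least 50 RPM in a group, at means of 23.0 to 34.6 RPM in control and 51.3 to 79.4 RPM in CPF libraries, with limma adjusted p-values of 0.609 to 0.762.

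No miRNA with at least 3 reads in a group reached an unadjusted p of 0.05 in the lower direction. The smallest p among names of at least 50 RPM was that of miR-1249, whose RefSeq gene lies within Kiaa0930. It stood at 1309, 1095, 1637, 1305 and 949 RPM in the controls, and at 862 (lowest), 1065 (median) and 1175 RPM (highest) in CPF libraries, so that 2 CPF libraries lay below all controls. Its log2 fold change was -0.27 (SE 0.144, 95% CI -0.58 to 0.03, limma adjusted p = 0.949), and without control replicate 3 it was -0.17. miR-19b, of the miR-17 to miR-92 clusters known for promoting proliferation, averaged 253 ± 42.5 and 185 ± 83.2 RPM, with 4 of 6 CPF libraries below the lowest control (183 RPM) and a log2 fold change of -0.56 (limma adjusted p = 0.949). miR-21-5p, which glia raise after injury, averaged 2682 ± 334 and 2388 ± 385 RPM, a log2 fold change of -0.18 (95% CI -0.44 to 0.09). miR-28-3p, miR-345-3p, miR-434-3p and miR-338-5p had log2 fold changes of -0.34, -0.33, -0.33 and -0.22, and each had a limma adjusted p of 0.949. Without CPF replicate 4 that of miR-434-3p was -0.10, without control replicate 3 that of miR-28-3p was -0.21, and without control replicate 3 or CPF replicate 3 that of miR-338-5p was -0.12. Without CPF replicate 2 that of miR-345-3p was -0.50, and without control replicate 3 or CPF replicate 3 that of miR-21-5p was -0.11 or -0.09. The other 3 of the 10 names of smallest p, miR-582-5p, miR-101a-5p and miR-29a-5p, averaged 50.4 to 57.9 RPM in control and 27.8 to 39.1 RPM in CPF libraries, near the floor.

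**Figure D3:**
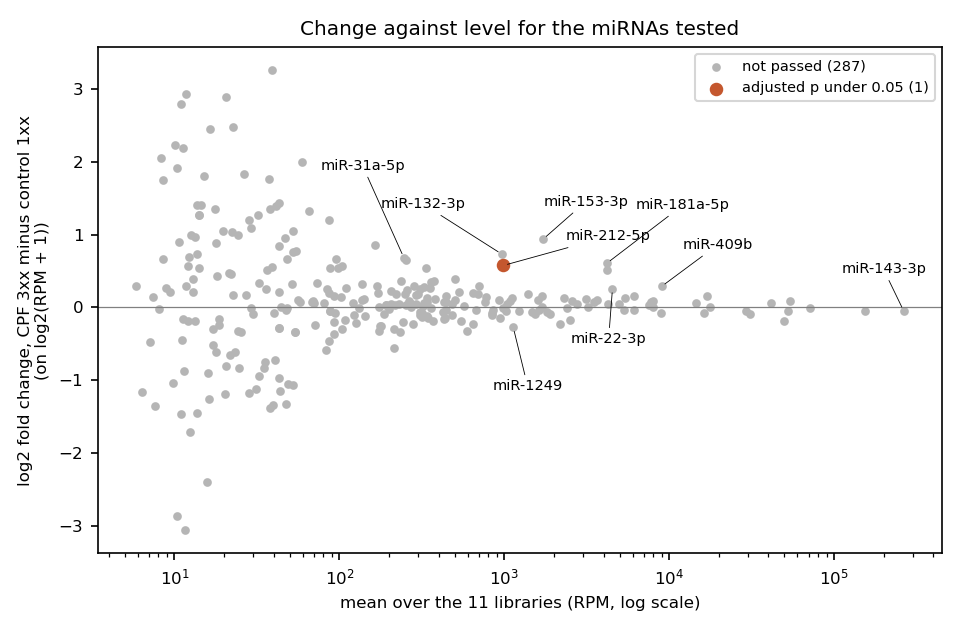
Log2 fold change of CPF against control libraries for the 288 miRNA names tested, against the mean RPM over the 11 libraries on a log scale. The coloured point is miR-212-5p (0.58), the 1 name past the threshold, and the spread of the grey points widens below about 100 RPM, where a library holds under 10 reads.

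The 10 most abundant miRNAs were miR-143-3p, miR-27b-3p, miR-30d-5p, miR-29a-3p, miR-9a-5p, miR-338-3p, miR-3586-3p, miR-92b-3p, let-7i-5p and miR-191a-5p, and none of them passed. Their log2 fold changes ran from -0.19 for miR-338-3p, of oligodendrocytes, to 0.09 for miR-29a-3p. That of miR-338-3p was -0.34 without CPF replicate 1, -0.10 without control replicate 3, -0.08 without CPF replicate 3 and -0.12 without CPF replicate 5. miR-27b-3p averaged 156951 ± 10458 RPM in control and 152476 ± 15966 RPM in CPF libraries, with a 95% CI of its log2 fold change from -0.23 to 0.14. miR-30d-5p averaged 71848 ± 2681 and 71383 ± 3607 RPM (95% CI -0.16 to 0.14). The 10 highest names of each library together made up 77.5 ± 0.494% of the RPM of the controls and 76.0 ± 1.51% of those of the CPF libraries. This share was 76.8 to 78.0% in the controls, and 73.0 (lowest), 76.5 (median) and 77.2% (highest) in CPF libraries. The difference of -1.55 percentage points had an exact permutation p of 0.00866 (two-sided, adjusted over 4 measures 0.0346, where the smallest p these groups allow is 0.00433). The lowest library was CPF replicate 1, and without it the difference was -0.96 (exact permutation, adjusted p = 0.0635). The number of names above 0 (270.4 ± 14.0 and 279 ± 10.2), the share of the highest name and the recovered reads (68734 ± 8648 and 74907 ± 12198) did not pass, with adjusted exact permutation p-values of 0.508 to 0.615.

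Gene groups were described by counts and medians, beside a median log2 fold change of 0.06 and 58% above 0 over all 288 names. Of the miRNAs linked to acetylcholinesterase or to cholinergic signalling, 14 of 15 were tested, with a median of 0.12 and 10 of 14 above 0. Of these 14, 1 passed as higher (miR-212-5p), 0 passed as lower and 13 did not pass. miR-132-3p, also a member, had the values given above (0.73 without passing), and miR-125b-2-3p averaged 613 and 679 RPM (log2 fold change 0.20). Nearer 0 were miR-24-3p (7445 and 7638 RPM, log2 fold change 0.03), miR-186-5p (1039.9 and 1006 RPM, -0.05) and miR-125b-5p (983 and 980.3 RPM, -0.01). miR-24-1-5p was lower, at 40.7 and 17.7 RPM (-1.17, limma adjusted p = 0.762), and averaged under 3 reads in both groups, as did 4 of the 14 in all. An unadjusted p under 0.05 (limma) was reached by 3 of the 14, namely miR-212-5p, miR-132-3p and miR-24-1-5p. Of the activity-regulated and synaptic miRNAs, 25 of 27 were tested, and again miR-212-5p alone passed, with a median of 0.03 and 13 of 25 above 0. Under 3 reads in both groups were 9 of the 25. An unadjusted p under 0.05 (limma) was reached by 3, namely miR-212-5p, miR-132-3p and the lower miR-125a-3p (23.1 and 9.59 RPM, log2 fold change -2.40). miR-138-5p, a regulator of dendritic spine size, averaged 2194 and 2386 RPM, with a log2 fold change of 0.13 (limma adjusted p = 0.949). For miR-137-3p the means were 391 and 351 RPM and the log2 fold change -0.19 (limma adjusted p = 0.964). Of the neuron-enriched miRNAs, 23 of 30 were tested and 0 passed, with a median of 0.09.

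Markers of other cell types were read in the same way. For the choroid plexus and ependyma, 7 of 9 names were tested and 0 passed, but the median log2 fold change was 0.86, with 6 of 7 above 0. Of these 7, 3 (miR-34b-3p, miR-34b-5p and miR-34c-3p) averaged under 3 reads in both groups, and 3 (miR-34b-3p, miR-34b-5p and miR-34c-5p) had an unadjusted p under 0.05, which 6.25% of all names had. Their summed share of RPM was 0.0704% in control (0.0580 to 0.0882%) and 0.0985% in CPF libraries (0.0635 to 0.123%), so the groups overlapped. miR-1298 averaged 122 ± 86.5 and 198 ± 87.5 RPM, a log2 fold change of 0.86, and miR-448-3p 55.3 ± 44.1 and 74.7 ± 34.1 RPM, a log2 fold change of 1.33 (limma adjusted p = 0.949 for both). miR-34c-5p, described above, was the most abundant of them (0.55, without passing). miR-204-5p averaged 234 ± 99.5 and 263 ± 92.3 RPM (0.18, and 0.04 to 0.40 with a library left out). miR-211-5p, too low to be tested, was at 0 in all controls and at 0 to 16.6 RPM in CPF libraries, under the floor. In bulk tissue more cells of a type and more RNA per cell cannot be told apart, and the part of choroid plexus in the values of miR-34c-5p was not tested.

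Of the oligodendrocyte list, 7 of 8 names were tested, 0 passed and 1 of 7 was above 0, with a median of -0.18. The list is mixed, since it holds miR-144-3p and miR-144-5p, which are also red blood cell names. miR-144-5p (log2 fold change -2.87, under 3 reads in both groups) was its only name with an unadjusted p under 0.05 (limma). The median was the value of miR-32-5p, and miR-23a-3p is also in a cluster list below. The most abundant members of the oligodendrocyte list were miR-338-3p (52113 ± 7359 and 47521 ± 16396 RPM, with CPF replicate 1 the highest library at 77616 RPM) and miR-338-5p (2329 ± 422 and 2029.7 ± 525 RPM). Both were highest among the controls in replicate 3. The miR-219 names had opposite signs: miR-219-2-3p was at 1002 ± 262 and 902 ± 221 RPM (log2 fold change -0.14), and miR-219-5p at 280.5 ± 58.9 and 364 ± 151 RPM (0.28). The list's members summed to 5.62 ± 0.793% of RPM in control libraries and, with a range of 3.38 to 8.24%, to 5.12 ± 1.72% in CPF libraries. For the microglial and inflammatory miRNAs, 9 of 10 were tested, 0 passed and the median was -0.04. For vessel wall and muscle, 7 of 14 were tested, 0 passed and the median was -0.04. Of the red blood cell names, 1 of 4 was tested, namely miR-144-5p with means of 17.4 and 4.54 RPM, while miR-451-5p averaged 5.39 and 4.82 RPM. Of the names typical of the thalamus, hypothalamus and other regions, 6 of 11 were tested, 0 passed and the median was 0.05, with miR-182 at 1044 ± 622 and 1022 ± 424 RPM and miR-183-5p and miR-96-5p listed at 0 in all 11 libraries. miR-183-5p is the reverse complement of miR-3553 over 22 bases, and that name averaged 137 RPM over the 11 libraries, so with the use of strand not given the 0 does not show that miR-183-5p was absent.

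No name of the family and cluster lists passed. The median was 0.26 for the miR-181 family (9 of 10 tested, 7 of 9 above 0), 0.15 for the Dlk1-Dio3 region (36 of 70 tested, 24 of 36 above 0), 0.06 for the miR-29 family (6 of 7 tested), 0.05 for the let-7 and miR-98 family (16 of 21 tested), 0.03 for the miR-23, miR-27 and miR-24 clusters (9 of 11 tested), -0.07 for the miR-30 family (11 of 12 tested) and -0.09 for the miR-17 to miR-92 clusters (8 of 17 tested, 1 of 8 above 0). The summed share of the miR-181 family averaged 0.630% in control and 1.17% in CPF libraries, but its highest CPF library was replicate 1 at 3.59%, and the median of the CPF libraries was 0.688%. Without that library the log2 fold change of miR-181a-5p went from 0.61 to 0.18 and that of miR-153-3p from 0.94 to 0.11. In the Dlk1-Dio3 region, miR-127-3p averaged 16053 ± 3257 and 17638 ± 1778 RPM (0.15, or 0.06 without control replicate 3, 0.25 without control replicate 4 and 0.10 without CPF replicate 4) and miR-434-3p 661 ± 148 and 546 ± 161 RPM (-0.33, or -0.10 without CPF replicate 4). In that region 17 of the 36 names averaged under 3 reads in both groups.

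**Figure D4:**
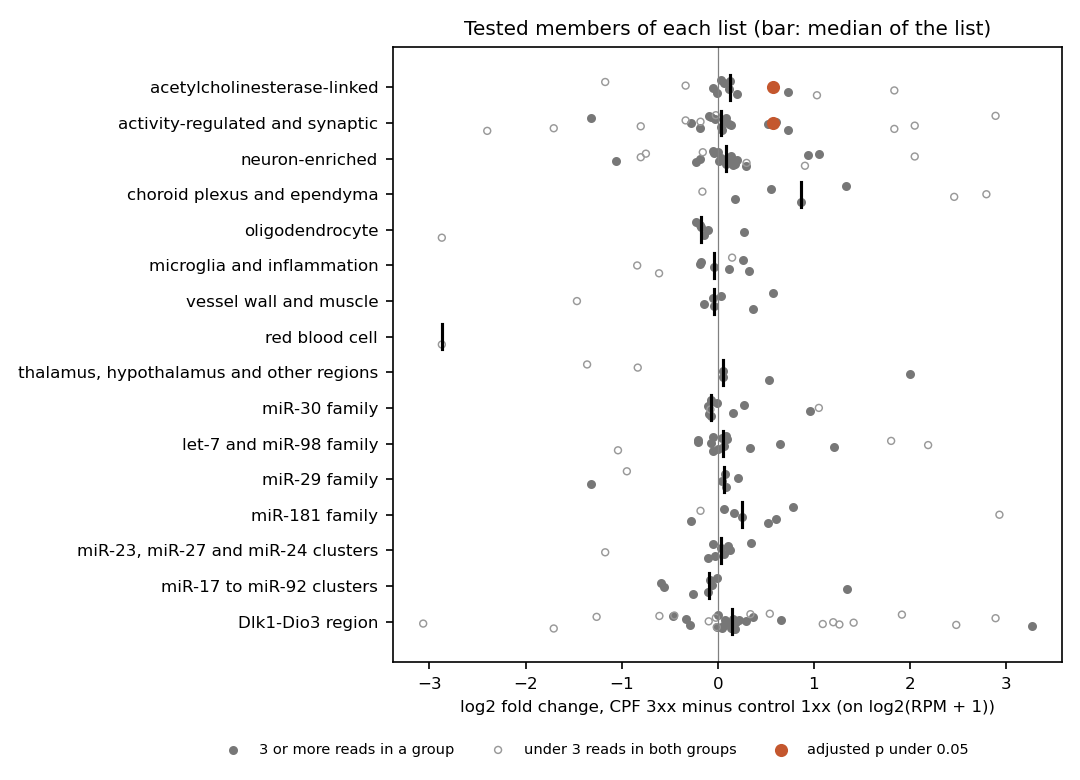
Log2 fold change of each tested member of the 16 lists (points, a row per list), with the median of the list as a bar. Open points averaged under 3 reads in both groups, and the coloured point, miR-212-5p (0.58), is the 1 name past the threshold and belongs to 2 lists.

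The other 11 libraries of the series give the same contrast in different libraries, if CPF codes that begin with 6 are set against control codes that begin with 4. The labels do not match the digits across groups, so this matching is a choice. 0 of 338 names passed the test of the difference between the pairs in their CPF effect (16 at an unadjusted p under 0.05, or 4.73%, limma), and edgeR on recovered reads also passed 0 of 148 (9 at an unadjusted p under 0.05). For miR-212-5p the log2 fold change was 0.58 here and 0.27 in the other pair (852 ± 125 and 1026 ± 145 RPM), a difference of 0.31 (95% CI -0.05 to 0.67, limma adjusted p = 0.842). For miR-132-3p it was 0.73 here and 1.04 there (693 ± 120.2 and 1423 ± 265 RPM), a difference of -0.30 (95% CI -0.92 to 0.31, limma adjusted p = 0.842). miR-132-3p was the 1 of 338 names (0.296%) that passed in the other pair, with a limma adjusted p of 0.0120. miR-212-5p passing here and miR-132-3p passing there was thus not shown to be a difference between the pairs.

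Among the other names, miR-409b, miR-22-3p and miR-34c-5p had log2 fold changes above 0 in both pairs (0.16, 0.18 and 0.71 in the other). miR-31a-5p and let-7c-5p had the opposite sign there, -0.21 and -0.13, and the differences of 0.90 and 0.78 had limma unadjusted p-values of 0.0250 and 0.0347 and adjusted p-values of 0.842. miR-28-3p also had opposite signs, -0.34 here and 0.52 there (difference -0.86, limma adjusted p = 0.842). Over the 272 names tested in both pairs, 136 had the same direction, and over the 181 with a mean of at least 50 RPM, 92 did. Of the 14 names with an unadjusted p under 0.05 here that were tested in both, 10 had the same direction in the other pair. Pearson's r was -0.00 and Spearman's rho 0.04 across the 272 names, and 0.29 and 0.14 across the 181, given as a description over miRNAs that share libraries and are not independent.

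**Figure D5:**
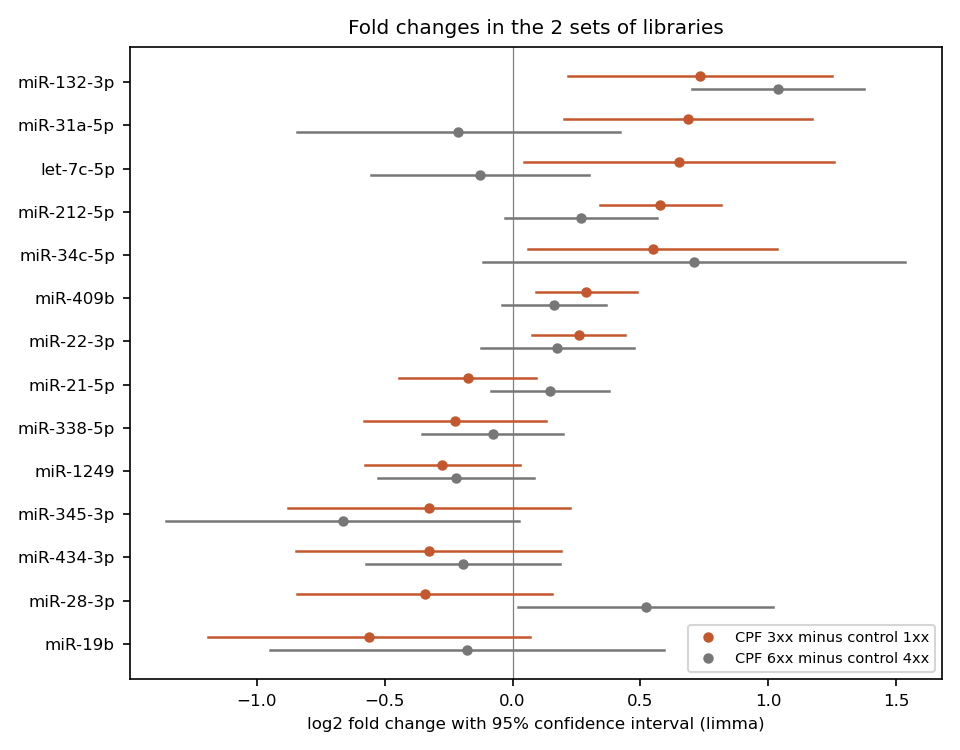
Log2 fold change with 95% confidence interval (limma) for the miRNAs of smallest p with at least 10 reads per library in a group, in the CPF 3xx against control 1xx libraries (coloured) and in the CPF 6xx against control 4xx libraries (grey). miR-132-3p and miR-212-5p lie above 0 in both (0.73 and 1.04, 0.58 and 0.27), and miR-31a-5p, let-7c-5p, miR-21-5p and miR-28-3p have opposite signs.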

How the data were processed

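Per the labels' protocols, TruSeq small RNA libraries were made from total RNA and read on a HiScanSQ. The authors deposited RPM (reads per 1000000) for each miRNA name, per the file headers. The rat build rn4, Partek 6.6, Bowtie, cutadapt 1.2 and CASAVA 1.8.2 stand in the submitters' processing notes, which give them no roles. Not given in the sources used here are the miRNA annotation, whether strand was used, and how reads with several matches were treated.

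A full file has 484 rows and 468 names. Values of the 13 names on 29 rows were added up. Control replicate 2 has 448 rows, and the 36 absent ones (967 RPM) were treated as missing. A read was taken as 2 of the steps between low values. Among the lower values above 0 of a library, 92.1 to 96.1% were whole reads within 0.02 RPM. Higher values were not checked in this way. These recovered reads were rounded for count tests. Replicates of a group differed beyond sampling noise, with a chi-square of at least 2.71 per degree of freedom.

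limma 3.58.1 (R 4.3.3) with a trend was fitted to log2(RPM + 1) of the 11 libraries, with a filter of 10 RPM in 5 libraries, and a model of all 22 libraries tested the difference between the pairs of codes. On this scale fold changes of low miRNAs differ from the ratio of means. Per-library measures had exact permutation tests in scipy 1.17.1. Alternatives were other pseudocounts, filters and scalings, edgeR 4.0.16, DESeq2 1.42.0 and limma-voom on recovered reads, other controls, the replicate number as a block, and each library left out in turn. The tests were tried on simulated data in which very abundant and very low names were kept unchanged. In an earlier version very abundant names could change, and limma on unscaled RPM then gave false calls through the shift in composition. The simulation was narrowed after that, so it does not cover changes of very abundant names, to which tests on RPM are sensitive. The miRNAs named are those that passed, the 10 of smallest p in each direction with at least 50 RPM in a group, the 10 most abundant, the miR-132 and miR-212 arms, the 2 most abundant of each list and those with 1 library of at least 500 RPM over 3 times the next. Other list members and miR-409a-3p are named beside these as examples chosen after their values were seen. The libraries, lists and rules were chosen with earlier results of these data known. Sequences are from RefSeq (GRCr8), where 410 of 468 names matched. As the files use rn4, no coordinates are given.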

Additional observations from a re-analysis of the deposited data

Results flagged for a closer look

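Of 106 groups of values checked, 17 held a library with a gap to the others beyond Dixon's 95% critical value. By chance about 1 in 20 independent groups, not picked by their values, would do so. 6 of the 17 were in CPF replicate 1: miR-153-3p at 14435 RPM, miR-181a at 17688 RPM, miR-181a-5p at 17488 RPM, miR-24-3p at 9465 RPM, miR-9a-5p at 34986 RPM and the share of the 10 highest names at 73.0%. Of these, miR-9a-5p and the share were below the other CPF libraries and the rest above them. miR-153-3p, miR-181a and miR-181a-5p came under the naming rule for 1 library far above the next, and the groups share libraries. The 17 therefore cannot be set against the rate of 1 in 20.

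Control replicate 3 stood above the other controls for let-7c-5p (391 RPM), miR-204-5p (409 RPM), miR-338-3p (64839.6 RPM) and miR-338-5p (3068 RPM), and below them in recovered reads (53748). CPF replicate 4 stood above the other CPF libraries for miR-127-3p (20998 RPM) and below them for miR-434-3p (231 RPM). CPF replicate 2 stood above them for miR-345-3p (270.2 RPM) and for miR-144-3p, where its 30.02 RPM was the only value above 0 in the group. Among the controls, replicate 2 was apart for miR-22-3p (4652 RPM) and replicate 5 for miR-764-3p (55.0 RPM). miR-212-5p had no such library in either group.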

How the results depend on the processing

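The count of names that passed went from 1 to 0 without a filter, with median-ratio scaling, in limma without a trend or with robust fitting, in edgeR without a filter, in DESeq2 and with the replicate number as a block, and leaving out each library in turn it ranged from 0 to 2. Over 29 alternatives it was 0 in 14, 1 in 14 and 2 in 1 (without CPF replicate 1). For miR-212-5p the limma adjusted p was 0.0550 without a filter, 0.0634 with median-ratio scaling, 0.0831 without a trend and 0.0609 with robust fitting, and its log2 fold change ranged from 0.54 to 0.62 with a library left out. Against the control libraries of code digit 4 its log2 fold change was 0.46 (limma adjusted p = 0.179), and the 1 name that passed there was miR-34b-3p. The labels do not say that the replicate number pairs animals. Deviations of same-numbered replicates had correlations of -0.11 to 0.10 over 276 names, which cannot exclude a pairing. Of the 5 controls, 2 correlated best with their own number. With the number as a block, CPF replicate 6 has no control of its number and adds nothing to the contrast. In that fit miR-212-5p had a log2 fold change of 0.57 (limma adjusted p = 0.463), with 0 names passed and 14 at an unadjusted p under 0.05. The difference between the pairs of codes gave 0 names in all 3 alternatives tried. For the share of the 10 highest names, the difference was -1.51 percentage points with rows of the same name kept apart (exact permutation, adjusted p = 0.0519), with 0 of the 4 measures passed. Leaving out each library in turn it ranged from -1.79 to -0.96, with 0 to 1 measure passed, and it passed without control replicate 4 or CPF replicate 2. For the share of the highest name it ranged from -1.39 to 0.11. Of the 48 named miRNAs tested, 27 kept their sign in all settings, and the other 21, none of which passed in any, did not. The cause of these changes was not tested. Depth limits the low names, since 84 of the 288 had means of under 3 reads in control and CPF libraries alike.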
